A study of Arabidopsis thaliana and Lactuca sativa with 158 samples.

Results

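The libraries described here are the 9 lettuce libraries titled always red, of 36 from lettuce and 158 in the whole series, compared by the promoter that drives the RUBY reporter. Membership followed the titles and the construct label: 3 libraries carried 35S::RUBY and 6 carried a ubiquitin promoter, AtUBQ::RUBY or LsUBQ::RUBY. The study followed transgene silencing, and sequenced RNA captured with biotinylated probes as long cDNA reads on a nanopore instrument. All 9 libraries came from leaf tissue of Lactuca sativa, ecotype Salinas, 4 weeks old, with the genotype given as Wt in every one. The groups shared all of this and differed in the construct. They also differed in line, in running sample number and in their place in the sample order of the series, as given below.

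The titles also carry a number such as Ls745, taken here as the transgenic line. Among the 35S libraries, 2 came from Ls745 (replicates 1 and 2) and 1 from Ls608 (replicate 3). Among the ubiquitin libraries, Ls880 (replicate 9), Ls886 (replicate 7) and Ls951 (replicate 8) gave 1 each, and Ls998 gave 3 (replicates 7, 8 and 9). Each line carried 1 promoter, so line and promoter cannot be told apart, and libraries of 1 line are not independent transformants. The labels do not say whether replicates were separate plants, so the p-values measure the spread between these libraries, which may in part be technical.

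RUBY is a single transcribed unit that encodes the enzymes converting tyrosine to betalain, so that a plant cell which expresses it turns red. The 35S promoter of cauliflower mosaic virus is a strong promoter, active in most plant tissues, and transgenes driven by it are often silenced. Ubiquitin promoters come from plant genes that are expressed in most cells. Most mature messenger RNAs end in a poly(A) tail, and transcripts that lack one have been studied as templates for RNA-dependent RNA polymerases, which make the double-stranded RNA that feeds small RNA production. The deposited tables divide sense reads into those marked pA and those not marked pA. They are read here as that mark alone, since the rule behind it is not given in the sources used here.

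The always red libraries held between 1258 and 23627 target reads, with a median of 2090, counted from the signal that 1 read adds in each table. RUBY made up between 93.6% and 99.8% of the summed target signal, and the other targets together between 44 and 120 reads. The 4 pairs of libraries from the same line differed by more than sampling noise, with a largest chi-square p of 6.15e-08. That test cannot tell separate plants from technical differences, so it does not show that these libraries are independent. Each library was nevertheless kept as its own unit, and values with the mean per line as the unit are given beside the tests. RUBY RNA was present in every always red library. The lowest always red library had 6852 units of RUBY signal, and the highest of the 9 lettuce libraries titled always green had 461. Green leaves were not free of RUBY RNA: those titled fully green had 1058 to 3375 under 35S and 228 to 437 under ubiquitin promoters. Tissue identity could not be checked, because the tables hold capture targets and no leaf markers.

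RUBY RNA was higher under 35S than under the ubiquitin promoters. The values are the authors' normalised sense signal, which does not correct for transcript length. In the 35S libraries the RUBY signal was 55656 and 29943 in Ls745 replicates 1 and 2, and 84740 in Ls608. In the ubiquitin libraries it was 13382 in Ls880, 7668 in Ls886, 6852 in Ls951, and 10684, 14429 and 10184 in Ls998 replicates 7, 8 and 9. The lowest 35S library thus lay above the highest ubiquitin library, and the groups did not overlap. The means were 56780 ± 27416 (SD, n = 3) under 35S and 10533 ± 3007 (SD, n = 6) under the ubiquitin promoters. On the log2(signal + 1) scale the difference was 2.36 (SE 0.47), or 5.12-fold, with an exact two-sided permutation p of 0.0119 and an adjusted p of 0.0159 over the 4 RUBY measures tested. The smallest p that 3 against 6 libraries can give is 0.0119. With the mean per line as the unit the difference was 2.63, with an exact permutation p of 0.0667, the smallest possible there. Its adjusted p was 0.0889, which did not pass. In RNA from whole leaf tissue, fewer expressing cells and less RNA per cell cannot be told apart.

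**Figure D1:**
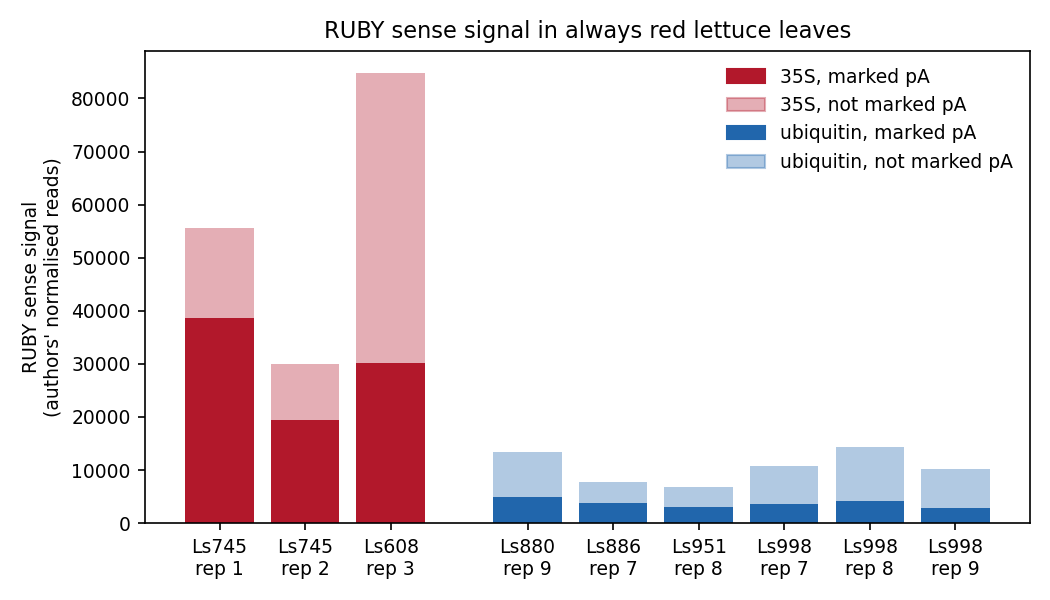
Each bar is 1 always red lettuce library, its height the RUBY sense signal in the authors' normalised units on a linear axis from 0, divided into reads marked pA (dark) and not marked pA (light). The 3 bars under 35S (red) reach 29943 to 84740 and the 6 under ubiquitin promoters (blue) 6852 to 14429, and the Ls608 bar is the 35S bar with the largest pale segment.

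The RUBY signal was also set against a target named for a plant gene within each library. AXS2, which in Arabidopsis encodes an enzyme that makes UDP-apiose and UDP-xylose for the cell wall, was the only other target with at least 40 reads in every library. RUBY signal was 133 and 75.6 times the AXS2 signal in the Ls745 libraries and 590 times in Ls608. Under the ubiquitin promoters the ratio was 39.8 in Ls880, 16.1 in Ls886, 28.9 in Ls951, and 32.8, 77.3 and 27.6 in the Ls998 libraries. The ranges overlapped on this scale, because Ls745 replicate 2 at 75.6 lay just below Ls998 replicate 8 at 77.3. The log2 difference was 2.45, or 5.48-fold, with an exact permutation p of 0.0238 that was not adjusted. This ratio was added after the values were seen, and with so few AXS2 reads it carries more counting error than the signal itself.

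RUBY reads marked pA also differed between the promoters, with a fold difference larger in value than that of all RUBY reads. Their signal was 38610 and 19428 in Ls745 and 30173 in Ls608. Under the ubiquitin promoters it was 4900 in Ls880, 3860 in Ls886, 2970 in Ls951, and 3672, 4174 and 2773 in Ls998. The 35S libraries all lay above the ubiquitin libraries, and the ubiquitin values stayed within a narrow band although they came from 4 lines. The means were 29404 ± 9614 (SD, n = 3) and 3725 ± 785 (SD, n = 6). The log2 difference was 2.95 (SE 0.32), or 7.74-fold, with an exact permutation adjusted p of 0.0159. That p tests the pA signal alone, not whether its difference exceeds that of reads not marked pA. Tested as the log2 odds of pA, the gap between the pA and non-pA differences did not pass (exact permutation p 0.0595). It was not seen in Ls608, whose pA share of 35.6% lay near the ubiquitin mean of 36.8%.

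RUBY reads not marked pA showed a fold difference smaller in value and a wider spread between the 35S libraries. Their signal was 17046 and 10514 in Ls745 and 54567 in Ls608. Under the ubiquitin promoters it was 8482 in Ls880, 3808 in Ls886, 3882 in Ls951, and 7012, 10255 and 7411 in Ls998. The groups did not overlap, but Ls745 replicate 2 at 10514 and Ls998 replicate 8 at 10255 were nearly level. The log2 difference was 1.75 (SE 0.75), or 3.36-fold, with an exact permutation adjusted p of 0.0159. Without Ls608, the 35S library with the highest value, the difference was 1.07 and did not pass, with an exact permutation adjusted p of 0.0714. With the mean per line as the unit the difference was 2.26, with an exact permutation adjusted p of 0.0889.

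The share of RUBY sense reads marked pA was higher in the Ls745 libraries than under any ubiquitin promoter, while the Ls608 library lay among the ubiquitin libraries. The share was 69.4% in Ls745 replicate 1, with an exact Clopper-Pearson 95% interval of 68.6 to 70.1, and 64.9% in replicate 2, with an interval of 63.7 to 66.1. In Ls608 it was 35.6%, with an interval of 35.0 to 36.2. These intervals rest on between 6120 and 23583 RUBY reads and cover counting error only. The 35S libraries therefore differed among themselves by far more than counting error.

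Among the ubiquitin libraries the pA share of RUBY was 50.3% in Ls886 (interval 47.4 to 53.2), 43.3% in Ls951 (40.9 to 45.8) and 36.6% in Ls880 (34.5 to 38.8). The 3 Ls998 libraries had 34.4% (32.1 to 36.7), 28.9% (27.5 to 30.4) and 27.2% (25.2 to 29.4). These rest on between 1178 and 4020 RUBY reads. The Ls998 libraries were the lowest of the 9, and the shares of the 4 ubiquitin lines covered a wider range than those of this line. The interval of Ls608 overlapped those of Ls880 and Ls998 replicate 7.

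The group means of the pA share were 56.6% ± 18.3 (SD, n = 3) under 35S and 36.8% ± 8.78 (SD, n = 6) under the ubiquitin promoters. The difference of 19.8 percentage points (SE 11.2) did not pass the threshold, with an exact permutation p of 0.0595, which was also the adjusted p. Of the 35S libraries, 2 of 3 lay above every ubiquitin library. The result turned on Ls608: without it the difference was 30.3 points with an exact permutation adjusted p of 0.0476, a comparison of 1 35S line with 4 ubiquitin lines. With the mean per line as the unit it was 11.2 points, with an exact permutation p of 0.467.

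**Figure D2:**
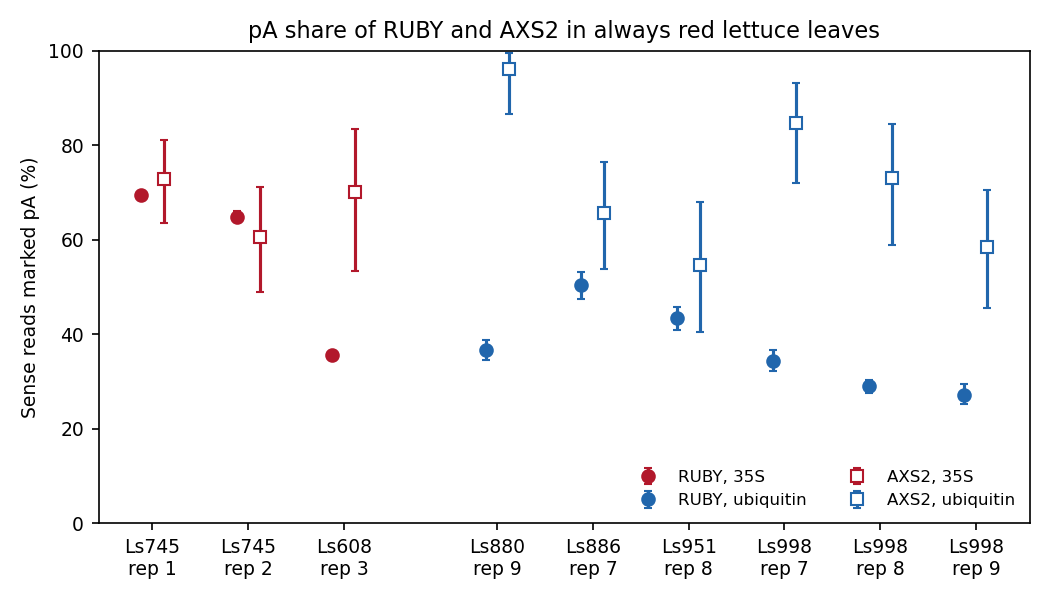
For each always red lettuce library, the percentage of sense reads marked pA is shown for RUBY (filled circles) and AXS2 (open squares), with exact 95% intervals for counting error, in red under 35S and in blue under ubiquitin promoters. RUBY lies at 69.4% and 64.9% in Ls745 and at 27.2% to 50.3% under ubiquitin promoters, with Ls608 at 35.6%, and AXS2 lies above RUBY in 8 of the 9 libraries.

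AXS2, listed under an Arabidopsis gene identifier, gives the same mark for a target named for a plant gene in the same libraries. Whether its reads came from the lettuce counterpart is not given in the sources used here. Its pA share was 72.9% and 60.5% in Ls745 and 70.0% in Ls608. Under the ubiquitin promoters it was 96.1% in Ls880, 65.8% in Ls886, 54.5% in Ls951, and 84.6%, 73.1% and 58.5% in Ls998. The AXS2 share did not follow the promoter, and Ls608, low for RUBY, was not low for AXS2. The means were 67.8% ± 6.49 (SD, n = 3) and 72.1% ± 15.9 (SD, n = 6), with an exact permutation p of 0.69 for the difference of -4.29 points. With between 40 and 107 AXS2 reads a library, its intervals are wide.

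Taken within a library, the RUBY share less the AXS2 share was -3.53 and 4.39 points in Ls745 and -34.4 in Ls608. It was -59.5 in Ls880, -15.4 in Ls886, -11.2 in Ls951, and -50.2, -44.1 and -31.2 in Ls998. The RUBY share was thus the lower of the pair in all 6 ubiquitin libraries and in Ls608, although the intervals of both genes overlapped in Ls951. In Ls745 it lay on either side of the AXS2 share. Between the promoters this within-library difference was 24.1 points higher under 35S, with an exact permutation p of 0.131, so it did not pass. It was added after the values were seen.

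The Arabidopsis and lettuce ubiquitin promoters could not be cleanly separated. The construct labels give AtUBQ::RUBY for Ls880 and Ls886 and LsUBQ::RUBY for Ls951 and Ls998, whereas the names of the deposited tables place Ls951 with AtUBQ. By the labels, RUBY signal ranged from 7668 to 13382 in the 2 AtUBQ libraries and from 6852 to 14429 in the 4 LsUBQ libraries, and the ranges overlapped. The pA share ranged from 36.6% to 50.3% and from 27.2% to 43.3%. By the table names, every LsUBQ library came from Ls998, with pA shares of 27.2% to 34.4%, below the 36.6% to 50.3% of the AtUBQ lines, so that this contrast sets 1 line against 3. The running number that begins each sample name inside the deposited tables goes from 11 to 13 under 35S, and from 23 to 25 and 35 to 37 under the ubiquitin promoters. In the sample order of the series, the 35S libraries likewise lie in a block apart from the ubiquitin libraries. The labels call neither order a batch, and such an order and the promoter cannot be told apart.

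The lettuce tables list 32 targets, of which 27 carry Arabidopsis gene identifiers, all found in the reference gene table. Whether their reads came from the lettuce counterparts of these genes is not given in the sources used here. Across the 9 libraries 9 targets were above 0 in any library and 4 were above 0 in at least 3 libraries, which was the condition for a test. Of these, limma called 1, RUBY, at a log2 difference of 2.36 (SE 0.42, adjusted p 0.00118), so that the share of tested targets called was 25%. No further target had an unadjusted p under 0.05. The median log2 difference of the tested targets other than RUBY was -0.45.

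AXS2 signal was 418 and 396 in Ls745 and 144 in Ls608. It was 336 in Ls880, 475 in Ls886, 237 in Ls951, and 326, 187 and 369 in Ls998. The groups overlapped throughout, at 319 ± 152 (SD, n = 3) and 322 ± 102 (SD, n = 6), and Ls608 had the lowest value of the 9 libraries beside the highest RUBY signal. The limma log2 difference was -0.10 (SE 0.46, adjusted p 0.837).

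UBP1B, an RNA-binding protein of stress granules in Arabidopsis, rested on 3 to 13 reads a library. Its signal was 11.7 and 63.6 in Ls745 and 14.4 in Ls608, and between 21.5 and 51.2 in the ubiquitin libraries, so the groups overlapped. Its limma log2 difference was -0.45 (SE 0.54, adjusted p 0.741). That value moved with each 35S library left out. It was -1.19 without Ls745 replicate 2, with a limma adjusted p of 0.0219, -0.014 without Ls745 replicate 1 and -0.15 without Ls608, neither of which passed. The pA share of UBP1B was 47.6% ± 32.3 (SD, n = 3) and 74.2% ± 33.2 (SD, n = 6), with an exact permutation adjusted p of 0.548 over the 2 plant genes tested.

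AGL20, also known as SOC1, a MADS-box regulator of flowering in Arabidopsis, was above 0 in 2 of 3 35S libraries and 4 of 6 ubiquitin libraries. Its signal was 3.90 and 14.7 in Ls745 and listed at 0 in Ls608, and under the ubiquitin promoters it ran from 0 to 39.8, with at most 7 reads in a library. The limma log2 difference was -0.86 (SE 1.40, adjusted p 0.741).

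**Figure D3:**
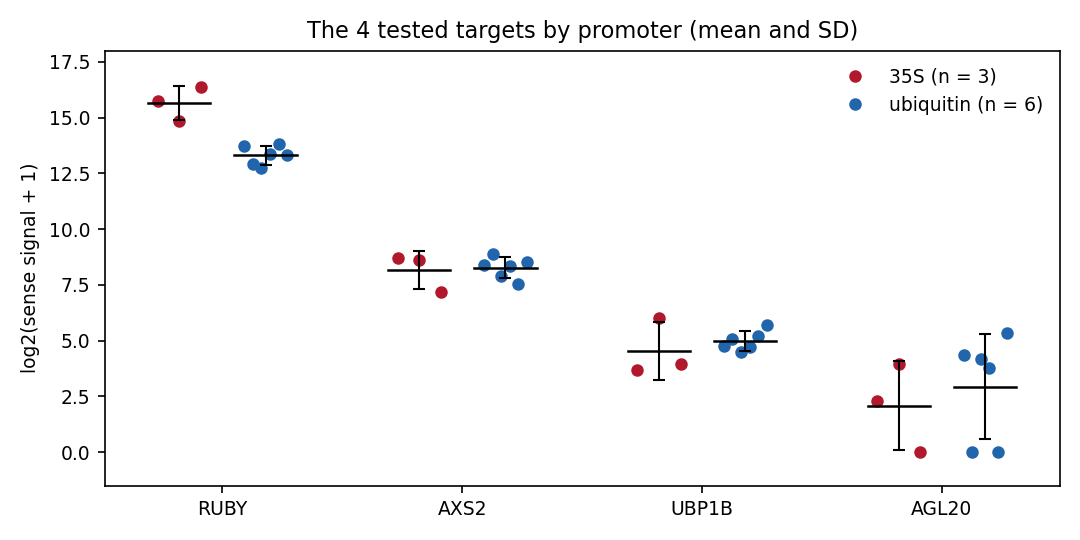
Points are the 9 always red lettuce libraries, as log2(sense signal + 1) for the 4 targets that were tested, in red under 35S (n = 3) and in blue under ubiquitin promoters (n = 6), with lines for the mean and bars for 1 SD. RUBY is the target whose groups stand apart, by 2.36, while the points of AXS2, UBP1B and AGL20 overlap; levels of different targets are not comparable, as signal is not per length.

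The remaining targets gave little signal. There were 5 above 0 in only 1 or 2 libraries. SDE3, an RNA helicase needed for silencing in Arabidopsis, had 7 reads, and SUR1, an enzyme of glucosinolate synthesis, had 16, both in Ls998 replicate 9 alone. TAS3, a precursor of trans-acting small RNAs, had 16 reads in the same library and 1 in Ls886. PDS1 and AT1G63130 had 1 read each. Of the 8 genes listed for silencing machinery, 5 were in the lettuce tables (AGO1, AGO4, AGO6, SGS3 and SDE3), 1 was above 0 in any always red library and 0 were tested. Of the 12 construct elements listed, RUBY, GUS and eGFP were in the tables, and GUS and eGFP were at 0 in all 9 libraries. A count of 0 allows up to 3 reads, or 10.8 to 19.8 units of signal by library. GUS and eGFP were among 23 targets at 0 in all 9.

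The promoter difference was next set beside other leaves. Lettuce leaves titled always green came from other lines: the 3 under 35S were all Ls611, and the 6 under ubiquitin promoters were Ls700 and Ls701, all labelled AtUBQ::RUBY, although the table names give LsUBQ for Ls700. Line, promoter and colour therefore differ together between these leaves and the always red ones. They had a RUBY signal of 23.4, 52.0 and 105 under 35S and of 5.14 to 461 under ubiquitin promoters. Those values rest on 1 to 87 RUBY reads and overlap entirely, with a log2 difference of -0.05. The log2 difference in always red exceeded it by 2.41. Exact permutation of promoter labels within each colour gave an adjusted p of 0.236 over the 4 such tests. That shuffle assumes no promoter difference in either colour, so its p-values cannot decide whether the 2 differences are equal. For the pA share the always green means were 45.1% ± 4.34 (SD, n = 3) and 34.4% ± 33.0 (SD, n = 6). The differences of 10.7 points in always green and 19.8 points in always red were 9.08 points apart, with an exact permutation adjusted p of 0.708. The always green ubiquitin mean includes Ls700 replicate 1, at 100% on 1 RUBY read. Without that library the mean was 21.3% ± 8.15 (SD, n = 5), the always green difference was 23.9 points, and the always red difference became the smaller, by -4.03 points, with an exact permutation adjusted p of 0.794. The level contrast without it was 3.03, with an exact permutation adjusted p of 0.0714.

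Arabidopsis leaves titled always red gave the same contrast with a maize ubiquitin promoter, in 11 35S::RUBY and 4 ZmUBQ::RUBY libraries. These were Col-0 leaves, 4 weeks old. The 35S libraries came from lines MK010, MK016, MK034, MK042, MK044 and MK045, and the ZmUBQ libraries from MK054 and MK056 only. Libraries of the same line are not independent transformants here either, and the SDs and p-values below take libraries as the unit. Always red 35S::RUBY leaves of dcl1234 plants and those labelled T1 were left out. RUBY signal there was 2.84-fold higher under 35S, a log2 difference of 1.51. The lettuce difference was 0.85 larger, with an exact permutation adjusted p of 0.569. The pA share in Arabidopsis was 76.4% ± 3.18 (SD, n = 11) under 35S and 77.2% ± 1.74 (SD, n = 4) under ZmUBQ, a difference of -0.84 points. The promoter difference in lettuce was 20.7 points larger, with an exact permutation p of 0.0428 and an adjusted p of 0.171, so that the correction over 4 tests was not passed. Without Ls608, which leaves Ls745 as the only lettuce 35S line, it was 31.2 points larger, with an exact permutation adjusted p of 0.0465. When each always red library was left out in turn, this was the 1 run of 9 that passed. The shuffle within each species likewise assumes no promoter difference in either one, so these p-values cannot decide whether the differences are equal. Promoters and species differ together in this contrast, and the tables of the species were compared only through their differences.

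Other red lettuce leaves of the same lines gave further values. Fully red leaves under 35S had a RUBY signal of 59824 and 130225 in Ls608 and 32444 in Ls745, against 18461 and 15488 in 2 fully red Ls998 libraries. The log2 difference was 1.90, with an exact permutation p of 0.2, and the smallest p that 3 against 2 libraries can give is 0.1. The pA share of fully red leaves was 58.4% and 49.0% in Ls608, 70.0% in Ls745, and 22.2% and 18.5% in Ls998. The 35S libraries were higher by 38.8 points on average, with an exact permutation p of 0.1, the smallest possible. Of these 3 lines, in always red and in fully red leaves, Ls745 had the highest shares, Ls608 lay lower and Ls998 lowest in value. In always red leaves the lower ranks were not separated, as the intervals of Ls608 (35.0 to 36.2) and Ls998 replicate 7 (32.1 to 36.7) overlapped. Always red Ls608 and fully red Ls745 were 1 library each. The red parts of an Ls998 leaf broke the order of the lines, with a pA share of 41.6%, above the Ls608 always red leaf and every other red Ls998 library. The Ls608 libraries ranged from 35.6% in the always red leaf to 58.4% in a fully red leaf.

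**Figure D4:**
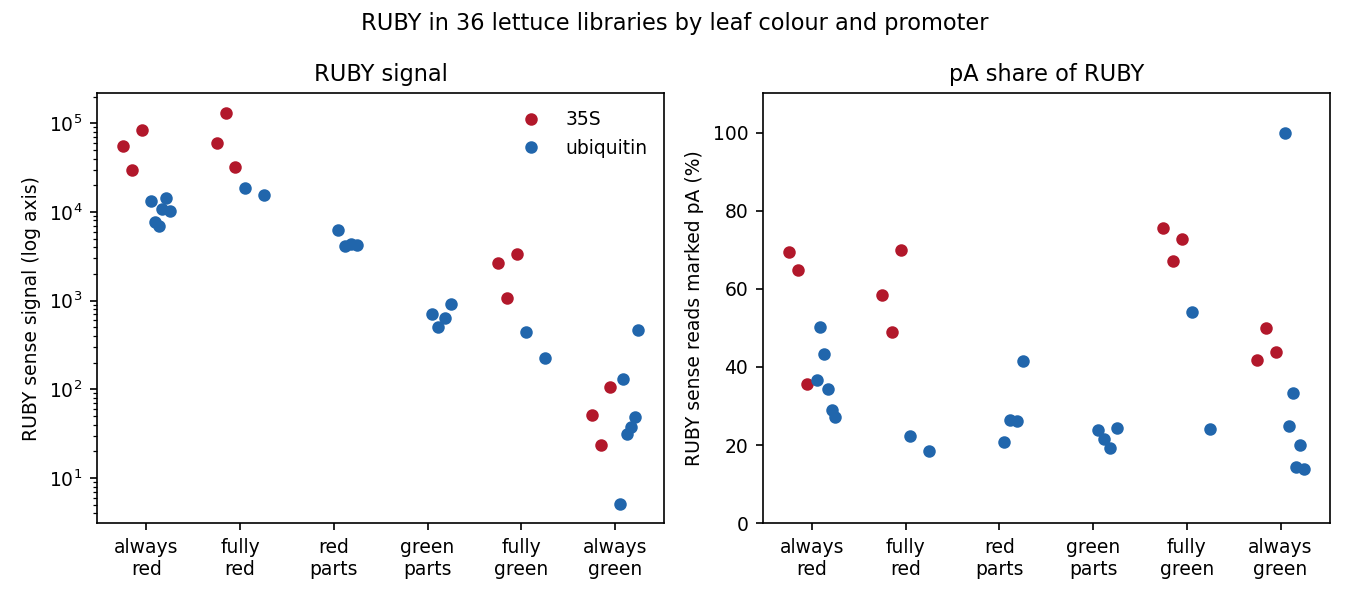
RUBY sense signal (left, log axis, authors' normalised units) and the percentage of RUBY sense reads marked pA (right) in the 36 lettuce libraries by leaf colour, each point 1 library, in red under 35S and in blue under ubiquitin promoters. The always red points lie at 6852 to 84740 on the left, above the always green points at up to 461, and on the right the ubiquitin points of always red leaves lie at 27.2% to 50.3%, with the 100% point in always green resting on 1 read.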

How the data were processed

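Target-captured long cDNA was measured in leaf RNA. The deposited values are normalised sense signal per target from all reads, scaled by the authors with a factor that is not given in the sources used here; per the file headers they are divided into pA and non-pA columns, with the pA share deposited in percent. The submitters' processing notes name TAIR10 and cutadapt, without versions. The lettuce tables have no antisense columns, so the planned antisense level and share were not analysed here. The signal of 1 read was inferred in each library as the largest step of which all its values are whole multiples (68 of 68 values in the 9 libraries, 300 of 300 in the 36), and served for read counts and exact intervals only. A step was accepted only if every value fitted, so these counts do not test it. A smaller true step would give more reads and narrower intervals. RUBY measures were compared by two-sided exact permutation of means over 84 assignments, with Benjamini-Hochberg adjustment over the 4 measures left of the 6 planned. Targets above 0 in at least 3 libraries were tested with limma 3.58.1 in R 4.3.3, without a trend on the mean, on log2(signal + 1), a scale that understates changes of low targets, and called at an adjusted p below 0.05. Other steps used Python 3.11.15 and scipy 1.17.1, and the tests were tested on simulated data. Those data had independent libraries and equal spread. The libraries here share lines and the tested targets differ in spread, so the simulation does not vouch for the p-values given. Ubiquitin promoters were pooled, because labels and table names disagree on Ls951, and replicate numbers follow the titles. Named targets were RUBY and every tested target, the rest by counts. Members and lists were chosen with earlier results of these data known. Alternatives varied the scaling, pseudocount, filter, unit (line or library), promoter set and libraries.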

Additional observations from a re-analysis of the deposited data

Results flagged for a closer look

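Of 12 groups of 4 to 10 libraries examined for a library far from the others, 2 held such a library, both among the lettuce always green leaves under ubiquitin promoters that served as background. Chance marks about 1 in 20 such groups. The RUBY signal of Ls701 replicate 3 was 461, on 87 RUBY reads, against 5.14 to 131 in the other 5. The RUBY pA share of Ls700 replicate 1 was 100%, on 1 RUBY read, against 13.8% to 33.3% in the others. No always red library was marked, but the 35S group of 3 is too small to be examined in this way.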

How the results depend on the processing

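Leaving out each always red library in turn, the 35S minus ubiquitin difference ranged from 2.01 to 2.76 for the RUBY level (past the threshold in 9 of 9), 2.73 to 3.22 for pA signal (9 of 9), 1.07 to 2.26 for non-pA signal (8 of 9) and 13.4 to 30.3 points for the pA share (1 of 9, without Ls608); called targets numbered 1 to 2. The level exceeded that difference in Arabidopsis by 0.50 to 1.25 and in always green leaves by 2.06 to 2.81, and the pA share by 14.3 to 31.2 and 2.71 to 19.6 points. As a percent of the summed signal, the level differed by 0.047, pA signal by 0.64 and non-pA signal by -0.56, in reverse, none past the threshold. RUBY made up 93.6% to 99.8% of that sum in the 9 libraries, which leaves the level little room to differ on this scale. Relative to all other targets non-pA signal differed by 2.00 and did not pass (exact permutation adjusted p 0.0833). With fewer units the permutation test could not pass: the mean per line (smallest p 0.0667) gave 2.63 for the level, 2.94 for pA and 2.26 for non-pA signal and 11.2 points for the pA share, although limma called RUBY there (adjusted p 0.00759); labelled AtUBQ libraries alone (smallest p 0.1) gave 2.36, 2.70, 1.91 and 13.1 points, with 0 targets called by limma, RUBY at an unadjusted p of 0.0351 (adjusted 0.14); and, added after the values were seen, table-name AtUBQ 2.55, 2.88, 2.09 and 13.2 points and table-name LsUBQ 2.16, 3.02, 1.40 and 26.4 points. Without line Ls608, the added alternative, values equal those without its only library: 30.3 points and 1.07. The limma difference of AXS2 changed sign to 0.35 centred on the other targets, 0.091 with labelled LsUBQ alone, 0.40 without Ls608 and 0.028 without Ls886, and that of AGL20 to 0.19 without Ls608; no value passed. The cause was not tested. Antisense alternatives were not run. UBP1B has no centred value, being the middle target. The titles share no replicate number between the groups, but the tables number both 7, 8 and 9. A replicate block on those numbers, added after the values were seen, left the differences at 2.36, 2.95 and 1.75 (permutation within numbers, adjusted p 0.0494, the smallest p being 0.037) and 19.8 points (p 0.111), with 1 target called. Over the 4 tested targets, deviations of same-numbered libraries correlated at 0.035, -0.63 and -0.78, and no 35S library correlated best with its own number. Without always green Ls700 replicate 1 the pA share contrast turned to -4.03 points, and without Ls701 replicate 3 it was 13.2 points; the level contrast was 3.03 and 1.79. Targets other than RUBY rest on 44 to 120 reads together in a library.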
